A study of Mus musculus with 6 samples.

Results

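Na,K-ATPase is the membrane pump that keeps sodium low and potassium high inside cells. The 6 genes described here encode 3 of its beta subunits (Atp1b1, Atp1b2 and Atp1b3) and 3 FXYD proteins that can bind to it (Fxyd1, Fxyd6 and Fxyd7). They were taken by symbol from the 54532 genes of the deposited table, and each symbol matched 1 gene. All 6 passed the filter on low values and were among the 20952 genes tested. RNA of the hippocampus was sequenced in 3 libraries of wild-type (WT) mice and 3 of transgenic (TG) mice, and whether each holds 1 mouse or pooled mice is not stated in the labels. The libraries are numbered as WT1, WT2, WT3, TG1, TG2 and TG3. TG mice are CRISPR/Cas9 knock-in mice that carry G82R and L85P, a pair of amino acid changes in Slc1a2, the gene of the astrocytic glutamate transporter GLT-1, on a C57BL/6N background. The study used WT littermates as controls and names no drug given to either group. WT and TG mice of the study went through behavioural tests, including fear conditioning with electric shocks. Whether the sequenced mice were among those tested is not stated. The line was bred through heterozygous F1 mice, and whether the sequenced TG mice carried 1 or 2 mutant copies and how old they were is not given in the sources used here. The study had mice of both sexes without saying which were sequenced. The Y-linked gene Ddx3y was at 10.6 to 12.3 FPKM in the 6 libraries, while Xist, which is transcribed from the inactive X chromosome, had at most 6 reads.

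Each pump consists of a catalytic alpha subunit and a beta subunit, and a small FXYD protein can bind to this pair. The beta subunit is a glycosylated protein with a single membrane span that carries the alpha subunit to the cell surface and affects its affinity for potassium. FXYD proteins also span the membrane once and adjust the affinity of the pump for sodium and potassium. In brain, Atp1b1 is known as the main neuronal beta subunit, Atp1b2 as a glial beta subunit that also acts in adhesion between cells, and Atp1b3 as a more widely expressed form. Fxyd1 encodes phospholemman, a target of protein kinases known from heart and from choroid plexus, which makes cerebrospinal fluid. Fxyd6 and Fxyd7 are brain-enriched members, and Fxyd7 is known from neurons and glia. Glutamate uptake by GLT-1 is driven by the sodium gradient that this pump maintains.

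The FXYD family takes its name from a short signature of amino acids next to the membrane span. The coding bases around it are shown because they mark the 3 genes as 1 family while their transcripts stay distinguishable for reads. They were taken from GENCODE M21 transcripts of the GRCm38 genome, each is a window of 45 bases, and the 15 bases in capitals are the codons of the signature with its leading proline, found once in frame in each gene.
Fxyd1: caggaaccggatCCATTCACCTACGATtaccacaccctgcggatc
Fxyd6: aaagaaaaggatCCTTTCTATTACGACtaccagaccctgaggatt
Fxyd7: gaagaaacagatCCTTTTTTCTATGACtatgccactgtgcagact
In each gene, 1 intron interrupts the window. The Fxyd1 window lies on the minus strand in coding exons at chr7:31053455-31053474 and chr7:31053893-31053917. The Fxyd7 window lies on the same strand at chr7:31045008-31045027 and chr7:31047373-31047397, and the Fxyd6 window on the plus strand at chr9:45390648-45390672 and chr9:45390777-45390796. Over these windows Fxyd1 and Fxyd6 were the closest pair, with 33 of 45 equal bases, against 29 of 45 for Fxyd6 and Fxyd7 and 27 of 45 for Fxyd1 and Fxyd7. Within the 15 signature bases Fxyd6 and Fxyd7 were closest, with 11 equal bases against 10 for Fxyd1 and Fxyd6. Whole coding sequences were also aligned in pairs, and identity was taken over the aligned bases, leaving out gaps. It was 63.2% for Fxyd6 and Fxyd7, 62.6% for Fxyd1 and Fxyd6 and 59.6% for Fxyd1 and Fxyd7. Among the 3 beta subunit genes it was between 59.2% and 62.0%. No stretch of 50 bases of Fxyd1, Fxyd6, Fxyd7 or Atp1b2 transcripts occurred in a transcript of another gene. For Atp1b3, 9.71% of the stretches occurred in Gm1848, which held at most 4 reads in any library. For Atp1b1, 15.8% occurred in Nme7, which lies on the opposite strand and overlaps Atp1b1 by 617 bases. The strand setting of the counting is not given in the sources used here, so reads of this overlap are uncertain, although Nme7 held at most 295 reads where Atp1b1 held at least 26952.

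Libraries held between 16081281 and 18751057 reads on genes, and the TG libraries lay within the range of the WT libraries. The targeted gene Slc1a2 had a level of 202, 199.5 and 177 FPKM in WT1 to WT3 and 222, 207 and 217 FPKM in TG1 to TG3. All TG libraries lay above all WT libraries, as in 6.35% of all genes tested (log2 fold change 0.16, standard error 0.0856, adjusted p = 0.789 with limma). By Western blot, the paper found almost no GLT-1 protein in TG hippocampus, and these RNA levels do not measure protein. FPKM is the number of reads of a gene divided by its length and by the total of the library, so the variant bases cannot be seen in it and these values do not check the genotype. Choroid plexus genes set apart the libraries TG1 and TG2. The FPKM of the 17 markers summed to between 84.6 and 117 in WT libraries and to 1353, 4224 and 97.1 in TG1 to TG3, and none of them was at 0 in all libraries. Astrocyte markers, 13 in all, summed to between 619 and 695 FPKM in WT and between 621 and 654 FPKM in TG libraries, and 10 neuronal markers to between 1216 and 1345 and between 1151 and 1271. Neuronal and astrocytic RNA was thus present in every library labelled hippocampal.

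The comparison of TG with WT mice asks whether these subunits change in hippocampus when GLT-1 carries the variants. No difference passed the test in any of the 6 genes. On log2(FPKM + 0.1) with limma, the number of members with an unadjusted p under 0.05 was 0, where 5.91% of all genes tested reached this (3.13% higher and 2.78% lower in TG mice). The number with an adjusted p under 0.05 was also 0, where 0.00955% of all genes did, which is 2 genes. In no member did all TG libraries lie above or below all WT libraries, as happened in 12.1% of all genes (6.35% higher and 5.71% lower in TG mice). With voom on the recovered reads, the number at an unadjusted p under 0.05 was again 0. For single values, 3 against 3 libraries allow an exact permutation p of 0.1 at the smallest. In bulk tissue, fewer cells of a type and less RNA per cell cannot be told apart.

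**Figure D1:**
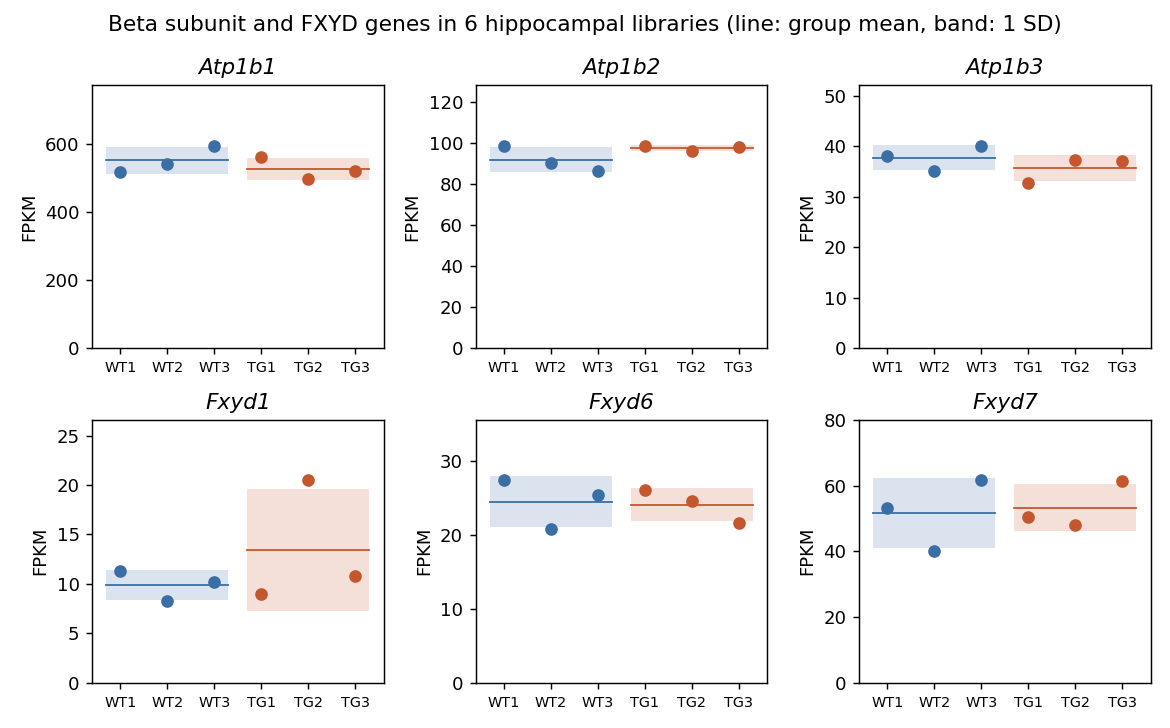
FPKM of each gene (y axis, from 0) in the libraries WT1 to WT3 (blue) and TG1 to TG3 (orange), with the group mean as a line and 1 SD as a band. The groups overlapped in all 6 genes, and the one library far from its group was TG2 for Fxyd1, at 20.5 FPKM.

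Atp1b1 (ENSMUSG00000026576, chromosome 1 from 164437109 to 164458355, minus strand) was the most abundant of the 6 and ranked 33 among all genes tested. Its level was 517, 542 and 594 FPKM in WT1 to WT3 and 561, 496 and 520.1 FPKM in TG1 to TG3. The highest value came from WT3 and the lowest from TG2, and the other 4 libraries were mixed. The group means were 551 ± 39.3 FPKM in WT and 526 ± 32.9 FPKM in TG mice (SD, n = 3 each). The log2 fold change was -0.07 (standard error 0.107, adjusted p = 0.88 with limma), and its 95% interval corresponded to a TG level of 0.801 to 1.14 times that of WT. Without WT3, the highest library, the log2 fold change was -0.01. Of the 6 genes it had the most reads, at least 26952 in each library.

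Atp1b2 (ENSMUSG00000041329, chromosome 11 from 69599736 to 69605942, minus strand) had a level of 98.6, 90.4 and 86.4 FPKM in WT1 to WT3. In TG1 to TG3 it was 98.5, 96.0 and 97.9 FPKM. The TG libraries lay close together near the top of the WT range, and WT1 was as high as any of them. The means were 91.8 ± 6.21 and 97.5 ± 1.31 FPKM (SD, n = 3 each), and the fitted log2 fold change was 0.09 (standard error 0.0735, adjusted p = 0.789 with limma). The interval ran from 0.944 to 1.20 times the WT level, the narrowest of the 6 genes. Leaving out WT1, the WT library at the TG level, gave a log2 fold change of 0.14. That each TG library then lay above each remaining WT library follows from the choice of the library left out.

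Atp1b3 (ENSMUSG00000032412, chromosome 9 from 96332655 to 96364442, minus strand) had a level of 38.1, 35.1 and 40.2 FPKM in WT1 to WT3. It was 32.8, 37.3 and 37.2 FPKM in TG1 to TG3. TG1 was the lowest library, and TG2 and TG3 lay inside the WT range. Without WT2, the lowest WT library, each TG library lay below each remaining WT library, which follows from the choice of the library left out. The means were 37.8 ± 2.55 and 35.8 ± 2.54 FPKM (SD, n = 3 each), and the fitted log2 fold change was -0.08 (standard error 0.0829, adjusted p = 0.816 with limma). The interval ran from 0.827 to 1.08 times the WT level. Without TG1 the log2 fold change was -0.02.

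Fxyd1 (ENSMUSG00000036570, chromosome 7 from 31051678 to 31057199, minus strand) varied most. Its level was 11.3, 8.30 and 10.2 FPKM in WT1 to WT3 and 8.96, 20.5 and 10.8 FPKM in TG1 to TG3. TG2 was high, with 802 reads where the other libraries had 293 to 456, and TG1 and TG3 lay within the WT range. The means were 9.94 ± 1.51 FPKM in WT and 13.4 ± 6.17 FPKM in TG mice (SD, n = 3 each). The log2 fold change of 0.35 (standard error 0.288, adjusted p = 0.789 with limma) had an interval from 0.796 to 2.04 times the WT level. Without TG2 the log2 fold change was -0.00051, so the difference in means rested on this library. TG2 was also the library with the most choroid plexus RNA, in which Ttr, the carrier of thyroid hormone in cerebrospinal fluid, reached 3705 FPKM. In TG1, however, Ttr was at 1168 FPKM, against 49.8 to 73.0 FPKM in WT libraries, while Fxyd1 was at 8.96 FPKM. With the mean log2 level of the 17 choroid plexus markers as a covariate, the log2 fold change of Fxyd1 was -0.11 (unadjusted p = 0.772 with limma). TG2 was also the highest library in the summed FPKM of 7 markers of ependyma, the lining of the ventricles. This sum was 15.8 in TG2, 9.35 in TG1, 8.20 in TG3 and 9.05 to 14.0 in WT libraries. The 7 markers did not run alike, since 4 had a positive log2 fold change. In TG mice 3 of them were lower and 0 higher at an unadjusted p under 0.05 with limma. Of all genes tested, 2.78% were lower and 3.13% higher. The part of choroid plexus or ependyma RNA in the TG2 value of Fxyd1 was not tested.

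**Figure D2:**
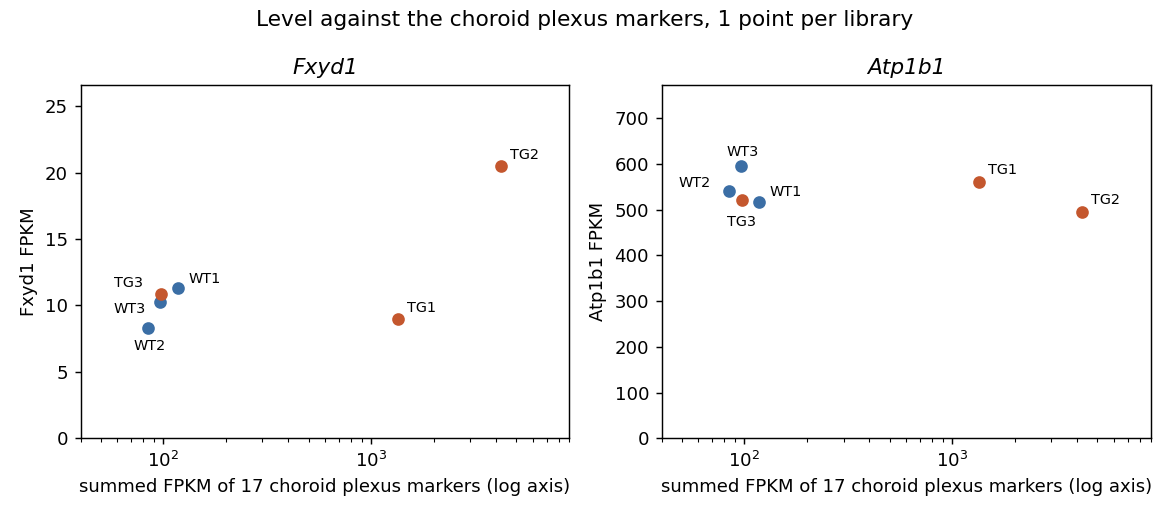
Level of Fxyd1 (left) and Atp1b1 (right) in FPKM against the summed FPKM of 17 choroid plexus markers on a log axis, 1 point per library. TG1 and TG2 stand apart on the x axis at 1353 and 4224 FPKM, and of these TG2 was high in Fxyd1 and TG1 was not.

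Fxyd6 (ENSMUSG00000066705, chromosome 9 from 45370185 to 45396159, plus strand) had a level of 27.3, 20.7 and 25.3 FPKM in WT1 to WT3. In TG1 to TG3 it was 26.0, 24.5 and 21.6 FPKM. All TG libraries lay between the lowest and the highest WT library. The means were 24.5 ± 3.39 and 24.0 ± 2.27 FPKM (SD, n = 3 each), and the log2 fold change of -0.02 (standard error 0.12, adjusted p = 0.974 with limma) was the smallest of the 6. The interval ran from 0.812 to 1.20 times the WT level.

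Fxyd7 (ENSMUSG00000036578, chromosome 7 from 31042513 to 31051467, minus strand) had a level of 53.2, 40.2 and 61.6 FPKM in WT1 to WT3 and 50.4, 48.1 and 61.4 FPKM in TG1 to TG3. WT2 was the lowest library, and WT3 and TG3 were nearly equally high. The means were 51.6 ± 10.8 and 53.3 ± 7.14 FPKM (SD, n = 3 each), and the fitted log2 fold change was 0.06 (standard error 0.166, adjusted p = 0.938 with limma). The interval ran from 0.796 to 1.36 times the WT level. At 693 bases Fxyd7 was the shortest of the 6 genes, and like the short genes as a class it was low in WT2 and high in WT3, but not in WT1, where the signs differed. For the 158 protein-coding genes under 1000 bases with a mean of at least 10 FPKM, the median log2 deviation from the WT mean was -0.04 in WT1, -0.17 in WT2 and 0.20 in WT3. That of Fxyd7 was 0.06, -0.34 and 0.28 in the same libraries. The median of these short genes was -0.30 in TG1, -0.11 in TG2 and -0.08 in TG3, whereas Fxyd7 was at -0.01, -0.08 and 0.27. The part of gene length in the spread of Fxyd7 was not tested.

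**Figure D3:**
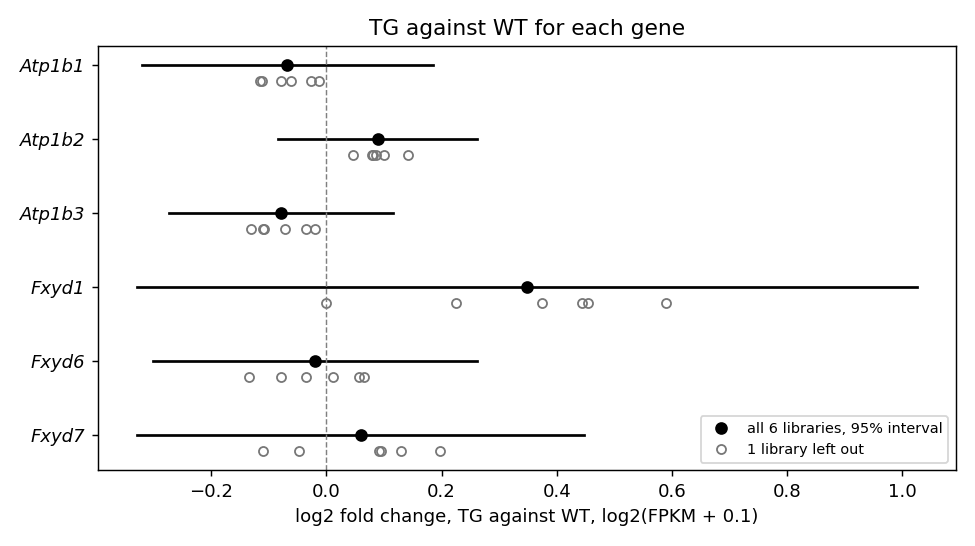
Log2 fold change of TG against WT on log2(FPKM + 0.1) for each gene, with the 95% interval from limma as a line and the values with 1 library left out as open circles. Every interval holds 0, and the circles of Fxyd1, Fxyd6 and Fxyd7 fall on both sides of 0.

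The spread between libraries was larger than counting error in all 6 genes within WT mice. Counting error, the inverse square root of the reads, was at most 0.609% for Atp1b1, 1.30% for Atp1b2 and 2.84% for Atp1b3, while the SD of the WT libraries was 7.12%, 6.77% and 6.75% of the mean. For Fxyd1, Fxyd6 and Fxyd7, counting error was at most 5.84%, 2.70% and 4.71%, and the WT SD was 15.2%, 13.9% and 20.9% of the mean. Over all genes with a mean of at least 10 FPKM the median WT SD was 8.30% of the mean, so the beta subunits lay below and the Fxyd genes above this value. Since no molecular identifiers were used in the table, copies of 1 molecule may be counted more than once, and these errors cover counting only.

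As levels per length, the order over all libraries was Atp1b1, Atp1b2, Fxyd7, Atp1b3, Fxyd6 and Fxyd1, and the ranges of neighbours in this order did not overlap. Some gaps were small, since the lowest Fxyd7 and the highest Atp1b3 level were both 40.2 FPKM, and the highest Fxyd1 level of 20.5 FPKM stood against a lowest Fxyd6 level of 20.7 FPKM. The order of the lower 4 also rested on the length in the table, which for each member was equal to the joined exons of all annotated transcripts. Fxyd1 has 17 annotated transcripts whose exons join to 2186 bases, 3.53 times its longest complete coding transcript of 620 bases. For Fxyd6 the factor was 2.30, for Atp1b2 1.44, for Atp1b3 1.20, for Atp1b1 1.19 and for Fxyd7 1.00. Divided by the longest complete coding transcript, a choice made after seeing the data, the mean WT level was 658 for Atp1b1, 132 for Atp1b2, 56.1 for Fxyd6, 51.6 for Fxyd7, 45.3 for Atp1b3 and 35.0 for Fxyd1, as FPKM on that length. The ranges of Fxyd6, Fxyd7 and Atp1b3 over the libraries then overlapped. Compared within each library, Fxyd6 was above Atp1b3 in every library, and Fxyd7 was above Atp1b3 in every library but WT2. The order of Fxyd6 and Fxyd7 differed between libraries. Fxyd1 was below Atp1b3 in 5 of 6 libraries on that length, without overlap within WT mice, and was above it in TG2, at 72.2. The choice of length multiplies all libraries of a gene by the same factor.

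**Figure D4:**
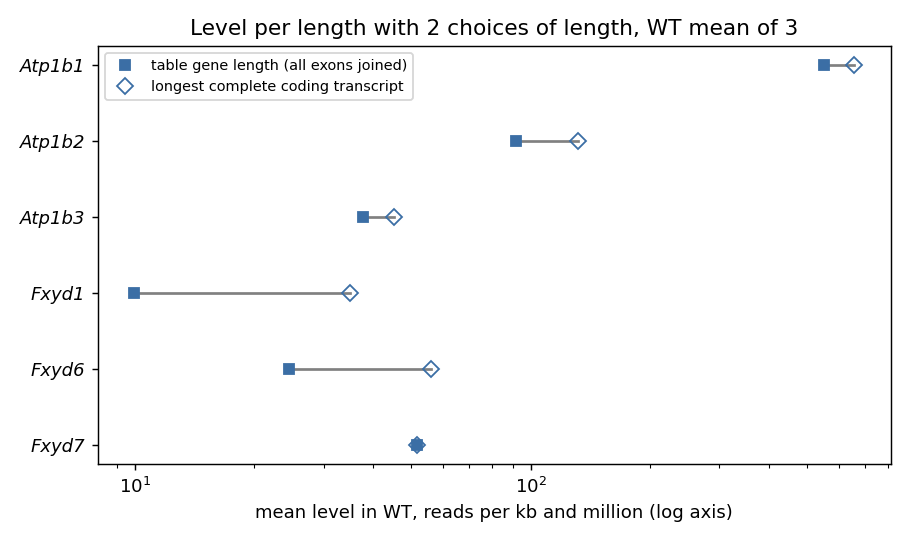
Mean level of each gene over the 3 WT libraries, as FPKM on a log axis, with the gene length of the table (squares) and with the longest complete coding transcript (diamonds). Fxyd1 moved from 9.94 to 35.0 and Fxyd6 from 24.5 to 56.1, while Fxyd7 stayed at 51.6.

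The makeup of each class was compared as the share of each gene in the summed FPKM of its class. The 3 beta subunit genes summed to 654, 667 and 721 FPKM in WT1 to WT3 and to 692, 629 and 655 FPKM in TG1 to TG3 (two-sided exact permutation test, p = 0.5). The difference of the means, TG minus WT, was -21.8 FPKM, and -1.80 FPKM without WT3. Atp1b1 made up 80.9% ± 1.69 of this sum in WT and 79.7% ± 1.15 in TG mice (SD, n = 3 each, two-sided exact permutation test, p = 0.4). Atp1b2 made up 13.5% ± 1.54 and 14.8% ± 0.528 (SD, n = 3 each, exact p = 0.3), and Atp1b3 made up 5.55% ± 0.285 and 5.45% ± 0.625 (exact p = 0.9). The order of the 3 beta subunits was thus the same in all 6 libraries. The 3 Fxyd genes summed to 91.7, 69.2 and 97.2 FPKM in WT1 to WT3 and to 85.4, 93.0 and 93.9 FPKM in TG1 to TG3 (exact permutation p = 0.8). Fxyd7 made up 59.8% ± 3.10 in WT and 58.7% ± 6.90 in TG mice (SD, n = 3 each, exact p = 1), and Fxyd6 made up 28.6% ± 2.17 and 26.6% ± 3.76 (exact p = 0.7). The share of Fxyd1 was 12.3% in WT1, 12% in WT2 and 10.5% in WT3, against 10.5% in TG1, 22% in TG2 and 11.5% in TG3 (exact p = 0.9). As for its level, only TG2 stood apart in this share. Adjusted over the 6 shares, every p was 1. With the longest coding transcripts as lengths, the WT shares were 39.4% for Fxyd6, 36.0% for Fxyd7 and 24.6% for Fxyd1.

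Fxyd1 and Fxyd7 are neighbours on the minus strand of chromosome 7 with 210 bases between them, and 31 bases separate Fxyd7 from Fxyd5. Fxyd5, which encodes dysadherin, had a level of 1.88, 1.73 and 1.78 FPKM in WT1 to WT3 and 1.12, 1.81 and 2.01 FPKM in TG1 to TG3. Fxyd5 was thus far below both Fxyd7 and Fxyd1, whereas the gap between Fxyd7 and Fxyd1 depended on the length used, as given above. The high value of Fxyd1 in TG2 was not seen in Fxyd7 or Fxyd5 of that library. On the other side of Fxyd1, 2142 bases away on the plus strand, lies Lgi4, which encodes a secreted protein of glia in peripheral nerve. Lgi4 had a level of 3.09, 3.39 and 2.67 FPKM in WT1 to WT3 and 3.78, 3.88 and 4.03 FPKM in TG1 to TG3. The groups of Lgi4 did not overlap, and TG was higher, as in 6.35% of all genes tested. Its log2 fold change was 0.35 (standard error 0.113, unadjusted p = 0.0167, adjusted p = 0.786 with limma). An unadjusted p under 0.05 with a higher TG level was reached by 3.13% of all genes tested. Fxyd6 lies 3509 bases before Fxyd2 on the plus strand of chromosome 9. Fxyd2, the gamma subunit known from kidney, had a level between 0.347 and 0.707 FPKM in the 6 libraries.

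**Figure D5:**
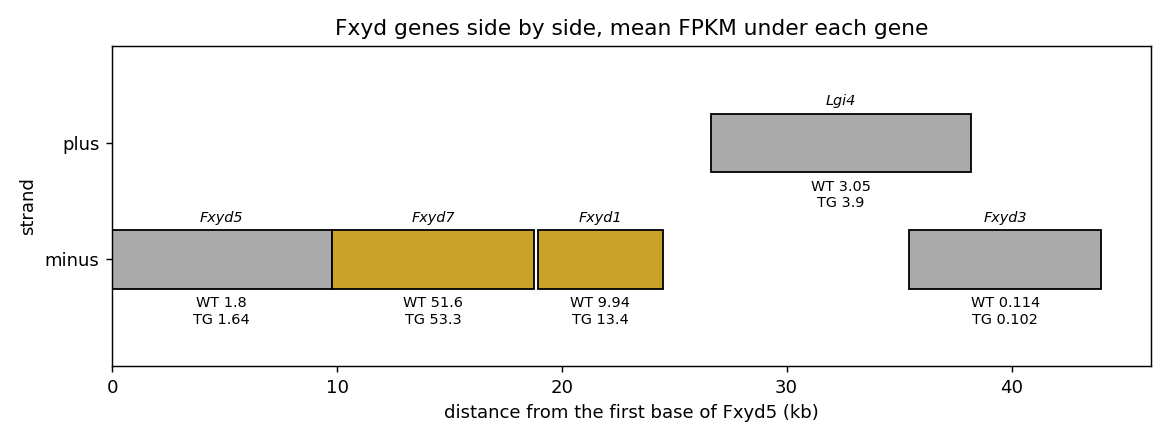
Map of the Fxyd5, Fxyd7, Fxyd1, Lgi4 and Fxyd3 genes by distance in kb from the first base of Fxyd5, on both strands, with the mean FPKM of 3 WT and 3 TG libraries under each gene. Fxyd7, at 51.6 FPKM in WT, lies between Fxyd5 at 1.80 and Fxyd1 at 9.94 FPKM.

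The other genes of the family were taken from a list of 9, which holds the catalytic subunits as well. Of these, 7 were tested and 0 had an unadjusted p under 0.05. Fxyd3 and Fxyd4 had at most 12 reads in any library, and Atp1b4, the form known from muscle, had 0 reads in all 6 libraries, below the 3 reads per library taken as the limit of counting. Of 12 pump partners and sodium-coupled exchangers, 1 was lower and 0 were higher in TG mice with the unadjusted test, and 0 passed after adjustment. Of all genes tested, 2.78% were lower and 3.13% higher with the unadjusted test. The median log2 fold change of the partners and exchangers was 0.05, where that of all genes tested was -0.002. The lower gene was Nkain4, of a family of proteins that interact with the pump. It had a level of 26.8, 26.8 and 32.0 FPKM in WT1 to WT3 and 24.1, 24.3 and 23.4 FPKM in TG1 to TG3. Every TG library lay below every WT library, as in 5.71% of all genes tested. The log2 fold change of Nkain4 was -0.25 (standard error 0.0853, unadjusted p = 0.0209, adjusted p = 0.786 with limma). In the same family, the groups of Nkain2 did not overlap either, with a log2 fold change of -0.09 (unadjusted p = 0.194 with limma). Those of Nkain1 and Nkain3 overlapped. The most abundant of these genes, the sodium-calcium exchanger Slc8a2, had a level between 71.3 and 95.9 FPKM in WT and between 79.1 and 95.9 FPKM in TG libraries. Of 10 other P-type pumps, 8 were tested and 0 had an unadjusted p under 0.05, with a median log2 fold change of 0.15. Among them, the smallest unadjusted p was 0.0536 for the calcium pump Atp2a3 and the most abundant was Atp2a2, at 142 to 149 FPKM in WT and 142 to 169 FPKM in TG libraries.

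Markers of the cell types that carry these subunits were compared in the same fit. At an unadjusted p under 0.05, 3.13% of all genes tested were higher and 2.78% lower in TG mice. Of 13 astrocyte genes 1 was higher at an unadjusted p under 0.05, the transporter Slco1c1. Like Fxyd1 it was highest in TG2 (17.5 FPKM, against 8.60 to 11.2 FPKM in the other libraries). Its next highest library was TG1, which was also high in choroid plexus RNA. The part of choroid plexus RNA in the level of Slco1c1 was not tested. Across the 13 genes, log2 fold changes ran from -0.098 to 0.46 around a middle value of 0.02, with 9 positive and Slco1c1 at the top. Of 10 neuronal genes 0 passed, and of 10 oligodendrocyte genes 1 was lower, Opalin. Of these 10 oligodendrocyte genes 0 had a positive log2 fold change, where 49.6% of all genes tested had one. The median of the oligodendrocyte genes was -0.28, from -0.77 to -0.07. TG1 was lowest, with a median log2 deviation from the WT mean of -0.65, against -0.15 in TG2, -0.06 in TG3 and -0.20 in WT3. Their FPKM summed to 522 in TG1, while TG2 and TG3, at 720 and 773, lay within the WT range of 671 to 840. All 17 choroid plexus genes had a positive log2 fold change and 11 of them passed at an unadjusted p, of which Kcnj13 had the smallest, 0.0138. At an adjusted p under 0.05 the number was 0 in each of these lists.

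For each member, the 4655 protein-coding genes outside the 6 with a mean of at least 10 FPKM were ranked by how alike their log2 levels ran over the 6 libraries, as a description without a test. The genes most alike were Acsl4 for Atp1b1 (Pearson r = 0.997), Adcyap1r1 for Atp1b2 (r = 0.982), Tmem11 for Atp1b3 (r = 0.996), Gnai3 for Fxyd1 (r = 0.979), Igsf21 for Fxyd6 (r = 0.982) and Rpp14 for Fxyd7 (r = 0.987). The second were Pja2, Sptssa, Cat, Ric3 and Elovl5 for Atp1b1, Atp1b3, Fxyd1, Fxyd6 and Fxyd7. These points share the composition of their library, and such values were not rare: 88 genes had an r above 0.95 with Atp1b3, 47 with Atp1b1, 18 with Atp1b2, 7 with Fxyd1, 4 with Fxyd6 and 3 with Fxyd7.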

How the data were processed

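Hippocampal RNA in 3 WT and 3 TG libraries was used. The authors counted reads per gene with HTSeq and deposited FPKM, computed from these reads and the gene length, with 1 column per library. The aligner is not given in the sources used here, and the build is GRCm38 per the labels. The paper names Trizol and a NEBNext kit, the labels an RNeasy and a SMARTer kit. Gene length, a deposited annotation column, was equal to the joined exons of GENCODE M21 for each member.

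Whole reads could be recovered from FPKM and gene length for 100% of values (tolerance 0.05 reads). In the libraries, 3 reads on 1 kb are 0.160 to 0.190 FPKM. Genes with a mean of at least 0.1 FPKM were fitted with limma 3.58.1 in R 4.3.3 (lmFit, eBayes with trend) on log2(FPKM + 0.1), TG against WT, no covariate, with Benjamini-Hochberg adjustment over all genes and a two-sided threshold of 0.05. Fold changes on this scale understate those of low genes. Shares and sums were compared by exact permutation. Sequences were handled in Python 3.11.15 with biopython 1.88. The members and lists were chosen with earlier results of these data known. Named genes were the members, their neighbours, the leading genes of each list and the 2 most alike genes of each member. Results of some of these genes, the alpha subunits among them, are not reported here. Alternatives were on pseudocount, filter, scaling, variance model, biotype, left-out libraries, replicate block, choroid plexus covariate and transcript length. Whether libraries came from separate mice is not stated, so p-values measure only the spread between these libraries, which may be technical.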

Additional observations from a re-analysis of the deposited data

How the results depend on the processing

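In all 17 alternatives to the fit, the number of members at an adjusted p under 0.05 and at an unadjusted p under 0.05 was 0, with Atp1b1, Atp1b2 and Atp1b3 on the same side of 0 throughout. With 1 library left out, the log2 fold change was -0.12 to -0.01 for Atp1b1, 0.05 to 0.14 for Atp1b2 and -0.13 to -0.02 for Atp1b3, and the summed FPKM of the beta subunits, TG minus WT, was -38.6 to -1.80. With the choroid plexus covariate the log2 fold change was 0.28 for Fxyd7 and -0.15 for Fxyd6. For Fxyd1 it was -0.11 with this covariate, and from -0.00051 to 0.59 with 1 library left out. For Fxyd6 it was from -0.13 to 0.065, and for Fxyd7 from -0.11 to 0.20. Without 1 library, the number of members whose groups did not overlap was 0 to 1 (Atp1b2 without WT1, Atp1b3 without WT2). The share of all genes without overlap was not computed for these smaller sets, so this count is not a result about the members. The share of Atp1b3, TG minus WT, ranged from -0.35 to 0.25 percentage points. That of Fxyd1 ranged from -0.59 to 5.17 and that of Fxyd7 from -4.45 to 2.44, and the sum of the Fxyd genes from -3.68 to 10.3. With fewer libraries the shares had no test. Deviations of same-numbered WT and TG libraries had an r of 0.003 to 0.043, against -0.027 to 0.016 for libraries of unlike number. Such low values show no strong pairing by replicate number but cannot exclude a weaker one. With the replicate block, 1244 genes had an unadjusted p under 0.05 and 0 an adjusted p. Of all genes, 686 had an unadjusted p under 0.05 with the choroid plexus covariate, against 1238. The number at an adjusted p, 2 as reported, was 0 with a pseudocount of 1 or 0.01, with no filter, with voom, with protein-coding genes only, with TG1 and TG2 both left out and with the covariate, 1 at a mean FPKM of at least 1, 9 without the trend and 0 to 6 with 1 library left out. The cause was not tested. With TG1 and TG2 left out, the lone TG3 is assumed to vary like the WT libraries, and Fxyd1 had a log2 fold change of 0.14.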
